A study of Mus musculus with 8 samples.

Results

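The collagens, the laminins, the matrix metalloproteinases (Mmp), their tissue inhibitors (Timp) and the Adamts proteases were followed in mouse striatal cells given extra Bcl11b, a zinc finger transcription factor of striatal neurons. Members were all probes of the expression array whose gene symbol begins with Col, Lama, Lamb, Lamc, Mmp, Timp or Adamts followed by the numbering of that family. The rule found 86 of 18120 genes, read by 125 of 25697 probes. One symbol met the rule without being a collagen: Col4a3bp encodes the ceramide transfer protein, and its 3 probes were kept in the counts but set apart. All cells were wild-type STHdhQ7 cells, a conditionally immortalized line of striatal progenitors from the embryonic mouse. In 1 group of 4 arrays (Bcl11b) the cells had received the plasmid pcDNA3.1 carrying a mouse Bcl11b cDNA, and in the other group of 4 (mock) the empty pcDNA3.1. RNA was taken 2 days after transfection and each set of cells was hybridized to 1 Illumina MouseRef-8 v2 array. The labels call the controls wild-type and number the replicates 1 to 4. Transfected cells are a mixture of cells that did and did not take up the plasmid, so a change is an average over both, and fewer cells expressing a gene cannot be told apart from less RNA per cell.

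Collagens are the main structural proteins outside the cell. Fibrillar collagens form the ropes of connective tissue, type IV collagen and the laminins form the sheets of the basement membrane, and smaller collagens link these structures to each other. Mmp enzymes are secreted or membrane-bound zinc proteases that cleave matrix proteins, the Timp proteins bind and block them, and Adamts enzymes process procollagens and cut proteoglycans. In the brain, matrix and proteases of this kind surround vessels and are used by migrating progenitors.

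The arrays gave between 10121 and 10784 detected probes in the mock group and between 10342 and 10644 in the Bcl11b group, a probe counting as detected on an array where its deposited detection p-value was under 0.01. Before normalization the mock arrays were brighter, with a median signal of 31.6 to 53.9 against 20.1 to 30.2. Values given below are log2 of the quantile-normalized signal, and fold changes are Bcl11b over mock from limma fitted to all 25697 probes, with adjusted p-values by the Benjamini-Hochberg method. No array detected the only Bcl11b probe, which leaves the expression of the transfected gene unseen here. Of 9 measured marker genes of striatal neurons (Bcl11b among them) none was detected, against 5 of 7 markers of neural progenitors (Dlx1, Dlx2, Nes, Sox2 and Vim) and 6 of 8 markers of fibroblasts or mesenchymal cells (Acta2, Dcn, Pdgfra, Pdgfrb, Prrx1 and Twist1). By PCR, the study found Ppp1r1b, Rgs9 and Bcl11b expressed in these cells, and it reported Present calls on the arrays for most of its striatal-enriched genes. A marker undetected here need not be absent. No endothelial marker (0 of 4) and no astrocyte marker (0 of 3) was detected, and of 5 markers of microglia or macrophages 1, Cd68, was.

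The promoters of the genes on which the results turn are shown first. An AP-1 motif stood in those of the proteases and in that of Col6a1, and not in those of Col7a1 and Col16a1. Whether the motifs bear on the changes was not tested. Each sequence is the last 160 bases before the annotated transcript start in RefSeq on GRCm38.p6, read 5′ to 3′ along the gene. Capitals mark a motif on either strand. The AP-1 motif was searched as TGAGTCA, which reads TGACTCA from the opposite strand. The TATA motif was searched as TATAAA, with TTTATA as its opposite reading, and the GC box as GGGCGG, with CCGCCC as its opposite reading. The Mmp13 window lies at chr9:7272354-7272513 on the plus strand, that of Mmp10 at chr9:7502182-7502341 (plus), that of Mmp3 at chr9:7445662-7445821 (plus), that of Col7a1 at chr9:108953426-108953585 (plus), that of Col16a1 at chr4:130047680-130047839 (plus) and that of Col6a1 at chr10:76726045-76726204 (minus).
Mmp13: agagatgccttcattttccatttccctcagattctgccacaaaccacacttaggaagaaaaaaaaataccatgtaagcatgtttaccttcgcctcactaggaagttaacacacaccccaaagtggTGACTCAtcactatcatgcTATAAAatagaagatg
Mmp10: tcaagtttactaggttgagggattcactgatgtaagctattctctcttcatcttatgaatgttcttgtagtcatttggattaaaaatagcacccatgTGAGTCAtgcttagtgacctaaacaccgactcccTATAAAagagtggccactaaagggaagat
Mmp3: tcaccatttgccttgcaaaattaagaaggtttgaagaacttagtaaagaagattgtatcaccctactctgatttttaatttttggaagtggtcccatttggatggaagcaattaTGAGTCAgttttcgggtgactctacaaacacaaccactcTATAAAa
Col7a1: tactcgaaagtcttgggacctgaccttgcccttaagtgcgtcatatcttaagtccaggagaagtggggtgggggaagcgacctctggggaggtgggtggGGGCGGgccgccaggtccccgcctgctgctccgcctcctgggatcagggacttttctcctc
Col16a1: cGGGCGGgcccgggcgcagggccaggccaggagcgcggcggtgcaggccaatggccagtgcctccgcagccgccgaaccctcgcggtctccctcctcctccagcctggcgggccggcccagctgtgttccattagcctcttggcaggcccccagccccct
Col6a1: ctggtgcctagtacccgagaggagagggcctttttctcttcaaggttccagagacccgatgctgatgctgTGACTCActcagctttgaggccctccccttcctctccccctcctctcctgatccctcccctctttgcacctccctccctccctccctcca

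In the 3 protease windows an AP-1 motif stood upstream of a TATA motif. The first base of the AP-1 motif lay 35 bases before the start of Mmp13, 63 before that of Mmp10 and 46 before that of Mmp3, and the TATA motif lay 16, 29 and 7 bases before. The Col7a1 and Col16a1 windows held a GC box 61 and 159 bases before the start, and the Col6a1 window held an AP-1 motif at 90 bases. Over the 250 bases before the start, 5.16% of 27025 genes held an AP-1 motif, against 8 of the 61 member genes with a RefSeq promoter (13.1%). Of these 8, 7 were among 17 Mmp genes and 1 among 29 collagens. The 7 Mmp genes all lie in the 1 cluster of neighbouring Mmp genes on chromosome 9 described below. A TATA motif, whose forward and reverse letters may overlap, was held by 14.3% of all genes and by 14 of the 61 members (23.0%). Of these, 8 were Mmp genes, all but Mmp21 in the same cluster. A GC box was held by 35.4% of all genes and by 30 of the 61 members (49.2%), of which 17 were collagens and 5 Mmp genes. These matches describe letters in a window and were not tested as binding sites.

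Of the 125 member probes, 54 (43.2%) were detected on at least 1 array, against 45.7% of all probes, and 34 of these on all 8. The remaining 71 were detected on none. By gene, 42 of 86 were detected. With the looser limit of 0.05, 66 probes (52.8%) were detected, against 53.4% of all probes. The Timp inhibitors were the most often detected family (3 of 4 genes), followed by the fibrillar collagens (7 of 11 genes) and the basement membrane collagens of types IV, XV and XVIII (5 of 8). Laminins were detected for 4 of 9 genes, Mmp enzymes for 10 of 22, Adamts enzymes for 6 of 14 and the other collagens for 6 of 17. Of the detected probes, 6 were seen on Bcl11b arrays alone and 4 on mock arrays alone. Among the genes with no detected probe were Col1a2, the partner chain of Col1a1 in type I collagen, the laminin α chains Lama1, Lama2 and Lama4, the gelatinase Mmp9, the macrophage elastase Mmp12 and the inhibitor Timp4. No fold change is given for these.

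At an adjusted p-value under 0.10, 4 of the 125 member probes changed: Mmp13 rose, and Col7a1, Col16a1 and 1 probe of Col6a1 fell. The 1 rise is 0.80% of the members, where 0.354% of all probes rose, and the 3 falls are 2.4%, where 0.627% of all probes fell. A second, looser threshold asked for an unadjusted p-value under 0.05 with a log2 fold change of at least 0.32 in size, and it was passed by 11 of the 54 detected member probes. Of these, 2 were higher in Bcl11b cells (3.70%, against 4.32% of all 11755 detected probes) and 9 were lower (16.7%, against 10.5%). With median scaling in place of quantile normalization the split was 4 higher and 7 lower. The other 43 did not pass the threshold. The values of the 2 groups did not overlap for 9 of the 54 detected member probes (16.7%), against 10.1% of all detected probes, with 3 higher (Mmp13, Mmp10 and Col2a1) and 6 lower (Col7a1, Col16a1, Col6a1, Timp3, Col4a5 and Adamts7). No test of the family as a whole was made. The median log2 fold change of the 34 probes detected on all 8 arrays was -0.07, beside -0.03 for all 9360 such probes.

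**Figure D1:**
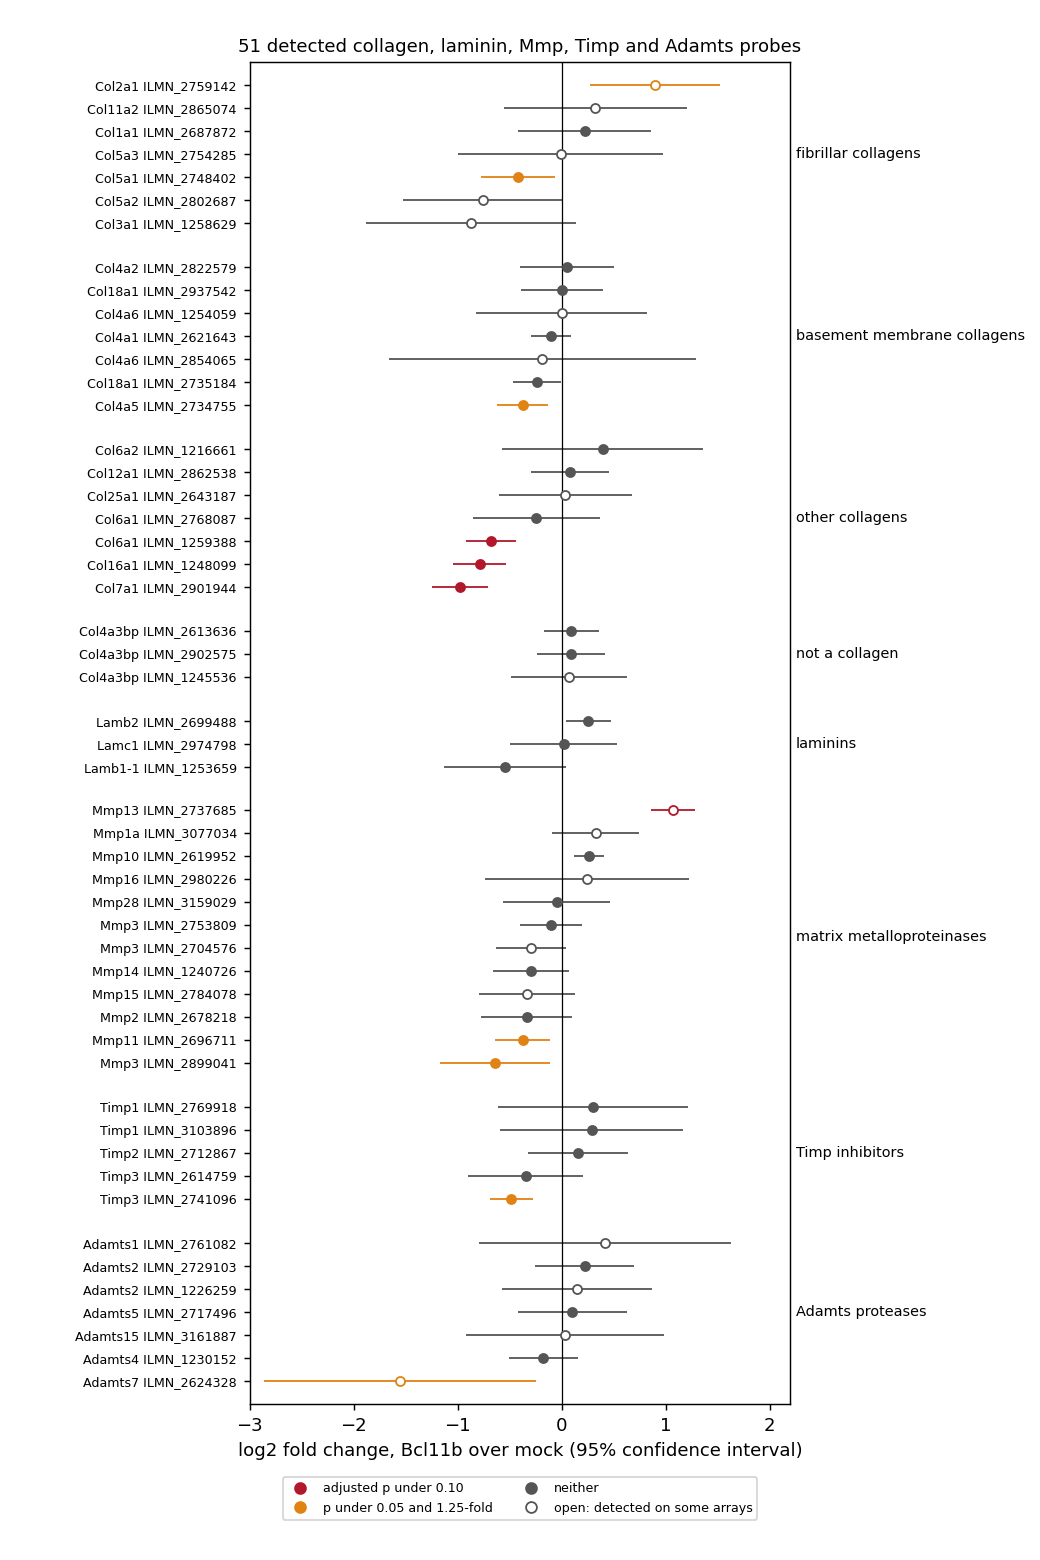
Log2 fold change (Bcl11b over mock, horizontal axis) of 51 of the 54 detected member probes by family, with 95% confidence intervals from limma, n = 4 arrays per group. Red marks an adjusted p under 0.10, orange an unadjusted p under 0.05 with a log2 fold change of at least 0.32 in size, and open circles are probes detected on some arrays, whose measured difference depends on signals near background. Mmp13 stands at the right and Col7a1, Col16a1 and Col6a1 at the left among the red points, while most intervals cross 0.

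The collagens outside the fibrils and the basement membrane held all 3 falls at the adjusted threshold. Col7a1, the chain of the anchoring fibrils that tie basement membranes to the tissue beneath, had log2 signals of 9.31, 9.41, 9.65 and 9.58 in the mock arrays and 8.63, 8.67, 8.41 and 8.32 in the Bcl11b arrays (probe ILMN_2901944). Every Bcl11b array lay below every mock array. The log2 fold change was -0.98 (SE 0.11), or 1.97-fold lower, with an adjusted p of 0.033. Its other probe, ILMN_2651234, was detected on no array, so the fall of Col7a1 rests on 1 probe. Col16a1, a fibril-associated collagen, had 10.53, 10.39, 10.86 and 10.52 in mock and 9.81, 9.89, 9.73 and 9.73 in Bcl11b cells (ILMN_1248099). These groups did not overlap either, and the Bcl11b arrays spread over a narrower range than the mock arrays. Its log2 fold change was -0.79 (SE 0.10), or 1.73-fold lower, with an adjusted p of 0.054.

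Col6a1, a chain of the beaded filaments of type VI collagen, was read by 3 probes, of which 1 passed the adjusted threshold. ILMN_1259388 gave 10.12, 10.005, 10.41 and 10.35 in mock and 9.48, 9.64, 9.55 and 9.50 in Bcl11b cells, a log2 fold change of -0.68 (SE 0.098; 1.60-fold lower; adjusted p = 0.060). ILMN_2768087 gave 11.04, 11.91, 11.06 and 11.54 in mock and 10.78, 11.02, 11.24 and 11.54 in Bcl11b cells, with a log2 fold change of -0.24 (SE 0.25; 95% confidence interval -0.86 to 0.37, which includes -0.68; adjusted p = 0.83). Its groups overlapped over most of their range, and the third probe was not detected, so the fall of Col6a1 rests on 1 of its probes. Col6a2, the partner chain, had a log2 fold change of 0.39 (SE 0.40; adjusted p = 0.82), and Col12a1, another fibril-associated collagen, 0.08 (SE 0.16; adjusted p = 1). The adjusted calls of these 3 collagens depended on the fit. Under limma-trend their adjusted p-values were 0.101 for Col7a1, 0.143 for Col16a1 and 0.187 for Col6a1. With 1 array left out at a time, that of Col7a1 ranged from 0.045 to 0.109 and passed the threshold except without mock replicate 4 (0.109) or Bcl11b replicate 3 (0.108). That of Col16a1 ranged from 0.030 to 0.174 and passed only without mock replicate 2 (0.0432) or 3 (0.030), and that of Col6a1 ranged from 0.041 to 0.196 and passed only without mock replicate 2. The unadjusted p-values stayed under 0.05 in all 18 alternatives, and the direction was the same. Over all 25697 probes, 637 passed the adjusted threshold without mock replicate 2, against 252 with all 8 arrays.

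**Figure D2:**
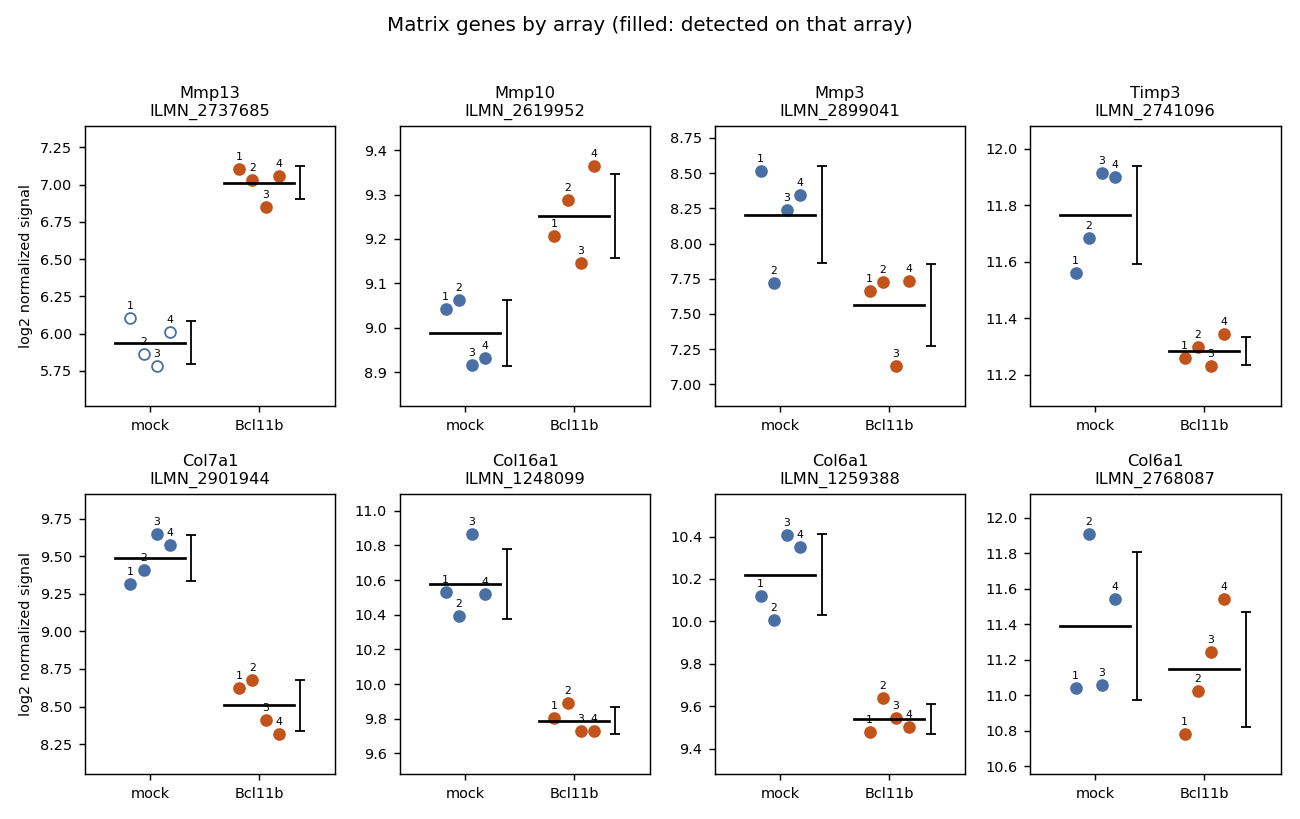
Log2 normalized signal (vertical axis) of 8 member probes in the 4 mock and 4 Bcl11b arrays, each point labelled with its replicate number, with the group mean (line) and SD (bar). Filled points were detected and open points were not, and each panel has its own scale. The Bcl11b points lie above the mock points for Mmp13 and Mmp10 and below them for Timp3, Col7a1, Col16a1 and Col6a1 (ILMN_1259388), and the groups overlap for Mmp3 and for Col6a1 (ILMN_2768087).

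With all 8 arrays, no fibrillar collagen probe passed the adjusted threshold, and 2 of the 7 detected probes passed the looser one, in opposite directions. Col5a1, a chain of type V collagen that limits the width of collagen fibrils, had 11.34, 11.76, 11.87 and 12.04 in mock and 11.26, 11.41, 11.34 and 11.33 in Bcl11b cells (ILMN_2748402). Mock replicate 1 lay among the Bcl11b arrays and the others above them. The log2 fold change was -0.42 (SE 0.15; 1.34-fold lower; adjusted p = 0.38). It no longer passed without mock replicate 2, 3 or 4 or Bcl11b replicate 1, 3 or 4, at log2 fold changes of -0.33 to -0.42. Col2a1, the cartilage collagen, had 5.76, 5.87, 5.05 and 5.27 in mock, where it was not detected, and 6.35, 5.90, 6.77 and 6.51 in Bcl11b cells, where 3 of 4 arrays detected it (ILMN_2759142). Its mean Bcl11b signal was 1.04-fold above the dimmest detected signals of the mock arrays, and its measured difference had an adjusted p of 0.29. The other Col2a1 probe, ILMN_2759144, was detected on no array. Col1a1, the main chain of type I collagen, had 10.91, 11.76, 10.68 and 11.38 in mock and 11.11, 11.25, 11.64 and 11.62 in Bcl11b cells. Its groups overlapped, with a log2 fold change of 0.22 (SE 0.27; adjusted p = 0.89). Col3a1, which joins type I collagen in soft tissues, had 8.08, 6.36, 7.78 and 7.90 in mock and 6.73, 7.14, 6.31 and 6.47 in Bcl11b cells. One mock array sat as low as the Bcl11b arrays, and the log2 fold change was -0.87 (SE 0.42; 95% confidence interval -1.88 to 0.14; adjusted p = 0.57). Without that array, mock replicate 2, Col3a1 passed the adjusted threshold (-1.27; adjusted p = 0.085). Leaving out that array also raised the probes past this threshold on the whole array from 252 to 637. The other Col3a1 probe, ILMN_2683958, was detected on no array. Col5a2, the partner of Col5a1, was detected on 3 mock arrays and 1 Bcl11b array, with a log2 fold change of -0.76 (adjusted p = 0.48).

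Of the basement membrane collagens, 1 of 7 detected probes passed the looser threshold and none the adjusted one. Col4a5, a chain of the type IV collagen of kidney and other specialized basement membranes, had 8.11, 7.93, 7.81 and 8.26 in mock and 7.58, 7.68, 7.61 and 7.75 in Bcl11b cells. The groups stood apart by a small gap, and the log2 fold change was -0.37 (SE 0.10; 1.30-fold lower; adjusted p = 0.26). With the lowest signal shifted to 1 in place of the floor it no longer passed, nor without mock replicate 4 (-0.30). Col4a1 and Col4a2, the chains of the type IV collagen found in most basement membranes, did not pass either threshold. Col4a1 had 11.88, 12.15, 11.86 and 12.12 in mock and 11.83, 11.92, 11.96 and 11.90 in Bcl11b cells, and its log2 fold change was -0.10 (SE 0.079; 95% confidence interval -0.29 to 0.09). Col4a2 had a log2 fold change of 0.05 (SE 0.19). Of the 2 detected probes of Col18a1, whose fragment is endostatin, ILMN_2735184 had a log2 fold change of -0.24 (SE 0.095; adjusted p = 0.46), under the fold limit, and ILMN_2937542 one of 0.00 (adjusted p = 1).

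The laminins did not pass either threshold in any of their 6 detected probes. Lamb2, the β2 chain, had 9.38, 9.60, 9.51 and 9.67 in mock and 9.78, 9.81, 9.96 and 9.63 in Bcl11b cells. Of the 4 Bcl11b arrays 3 lay above all mock arrays, with a log2 fold change of 0.26 (SE 0.089; adjusted p = 0.38), under the fold limit. Lamb1-1, the β1 chain (Lamb1), had 8.44, 8.39, 7.88 and 8.85 in mock and 7.70, 8.29, 7.84 and 7.56 in Bcl11b cells, a log2 fold change of -0.54 (SE 0.25; adjusted p = 0.53). Lamc1, the γ1 chain shared by most laminins, had 10.35, 11.22, 10.66 and 11.06 in mock and 10.76, 10.75, 10.72 and 11.14 in Bcl11b cells. The groups covered the same range, and the log2 fold change was 0.02 (SE 0.21; 95% confidence interval -0.50 to 0.53).

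Of the 12 detected Mmp probes, 1 passed the looser threshold as higher (8.33%, against 4.32% of all detected probes). As lower, 2 passed it (16.7%, against 10.5%). Mmp13, a collagenase that cuts fibrillar collagen, was the one member that rose at the adjusted threshold. Its probe ILMN_2737685 had 6.10, 5.86, 5.78 and 6.01 in mock and 7.11, 7.03, 6.85 and 7.06 in Bcl11b cells. It was detected on no mock array and on all 4 Bcl11b arrays, and the groups were well separated. Against the dimmest detected signal of each mock array, the mean Bcl11b level was at least 1.61-fold higher. Its adjusted p of 0.013 tests the measured log2 fold change of 1.07, which rests on undetected mock signals. With 1 array left out at a time its adjusted p ranged from 0.021 to 0.066. Its call was lost only without normalization between arrays (adjusted p = 0.53), where the median of all probes was shifted by -0.49. The other 2 Mmp13 probes, ILMN_1249336 and ILMN_2799267, were detected on no array, so the rise rests on 1 probe.

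In the mouse genome Mmp13 is the first of 10 neighbouring Mmp genes on chromosome 9, in the order Mmp13, Mmp12, Mmp1b, Mmp3, Mmp1a, Mmp10, Mmp8, Mmp27, Mmp20 and Mmp7, with no other protein-coding gene between them in RefSeq. Mmp13, Mmp3, Mmp1a and Mmp10 were detected and the other 6 were not. Mmp10 (stromelysin-2, which cuts many non-fibrillar matrix proteins) had 9.04, 9.06, 8.92 and 8.93 in mock and 9.21, 9.29, 9.15 and 9.36 in Bcl11b cells (ILMN_2619952). All Bcl11b arrays lay above all mock arrays by a small margin, with a log2 fold change of 0.26 (SE 0.059; adjusted p = 0.18). Mmp3 (stromelysin-1) went the other way in its brightest probe, ILMN_2899041, with 8.52, 7.72, 8.24 and 8.35 in mock and 7.66, 7.73, 7.13 and 7.73 in Bcl11b cells. Mock replicate 2 lay with the Bcl11b arrays, and the log2 fold change was -0.64 (SE 0.22; 1.56-fold lower; adjusted p = 0.37). It no longer passed without mock replicate 1 (-0.53), 3 (-0.63) or 4 (-0.60). The second Mmp3 probe, ILMN_2753809, had a log2 fold change of -0.10 (adjusted p = 0.90), and the third, detected on 3 arrays, one of -0.29 (adjusted p = 0.57). Mmp1a, the interstitial collagenase, was detected on 3 Bcl11b arrays and no mock array and was at least 1.10-fold higher, with an adjusted p of 0.64.

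Outside that cluster, Mmp11 (stromelysin-3) was the other Mmp gene that passed the looser threshold. It had 9.25, 9.16, 8.78 and 9.20 in mock and 8.72, 8.65, 8.83 and 8.69 in Bcl11b cells, and mock replicate 3 lay among the Bcl11b arrays. Its log2 fold change was -0.37 (SE 0.11; adjusted p = 0.30), and without mock replicate 1 it was just under the fold limit (-0.32). Without mock replicate 3 its adjusted p was 0.056. Mmp14, the membrane-bound protease that activates pro-Mmp2, had 12.001, 12.16, 12.19 and 12.14 in mock and 11.64, 11.64, 11.76 and 12.27 in Bcl11b cells. Bcl11b replicates 1 to 3 were lower than all mock arrays and replicate 4 was higher than all of them, with a log2 fold change of -0.30 (SE 0.15; adjusted p = 0.61). Without Bcl11b replicate 4 it passed the adjusted threshold (-0.45; adjusted p = 0.072). Mmp2, a gelatinase, had 9.32, 9.16, 8.63 and 9.004 in mock and 8.51, 8.53, 8.73 and 9.01 in Bcl11b cells, with a log2 fold change of -0.33 (SE 0.18; adjusted p = 0.65). Over the 7 Mmp probes detected on all 8 arrays the median log2 fold change was -0.30, with 6 below 0 and 1 above. Of all 9360 such probes on the array, 4996 were below 0. The 7 hold 2 probes of Mmp3 and leave out Mmp13 and Mmp1a, which were detected on Bcl11b arrays alone. Over all 12 detected Mmp probes, 4 were above 0 and 8 below, where 5674 of all 11755 detected probes were above and 6081 below.

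Of the inhibitors, Timp3, which stays bound to the matrix and also blocks Adamts enzymes, passed the looser threshold and missed the adjusted one. Its probe ILMN_2741096 had 11.56, 11.68, 11.92 and 11.90 in mock and 11.26, 11.30, 11.23 and 11.35 in Bcl11b cells. Every Bcl11b array lay below every mock array, with a log2 fold change of -0.48 (SE 0.087; 1.40-fold lower; adjusted p = 0.11). Its p stayed under 0.05 in all 18 alternatives, and its adjusted p was under 0.10 in 3 of them, among them without mock replicate 1 (0.082). The second probe, ILMN_2614759, had 8.59, 9.38, 9.13 and 9.14 in mock and 8.61, 8.46, 8.57 and 9.21 in Bcl11b cells. Its groups overlapped through mock replicate 1 and Bcl11b replicate 4, and its log2 fold change was -0.35 (SE 0.23; adjusted p = 0.73).

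Timp1 and Timp2 varied within both groups. Timp1, a secreted inhibitor of most Mmp enzymes, had 13.15, 12.44, 12.97 and 11.98 in mock and 13.15, 13.11, 13.30 and 12.13 in Bcl11b cells (ILMN_3103896). It was low on mock replicates 2 and 4 and on Bcl11b replicate 4, and its second probe ILMN_2769918 was low on the same arrays, with 12.85, 12.18, 12.80 and 11.81 in mock and 12.97, 12.97, 13.09 and 11.82 in Bcl11b cells. The log2 fold changes were 0.29 (SE 0.36; 95% confidence interval -0.59 to 1.17) and 0.30 (SE 0.38; -0.61 to 1.21). Timp2, which also takes part in the activation of pro-Mmp2, had 13.22, 13.52, 12.63 and 13.22 in mock and 13.29, 13.08, 13.36 and 13.49 in Bcl11b cells, a log2 fold change of 0.16 (SE 0.20; adjusted p = 0.91). Col1a1 and the second Col6a1 probe were high in mock on the same replicates 2 and 4 on which Timp1 was low. Across the 11755 detected probes, the deviations from the group mean on Bcl11b replicate 4 correlated with those on mock replicates 2 (r = 0.54) and 4 (r = 0.57) and against those on mock replicate 1 (r = -0.65), a description across probes, which are not replicates. The part of this shared pattern in the Timp1 values was not tested.

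**Figure D3:**
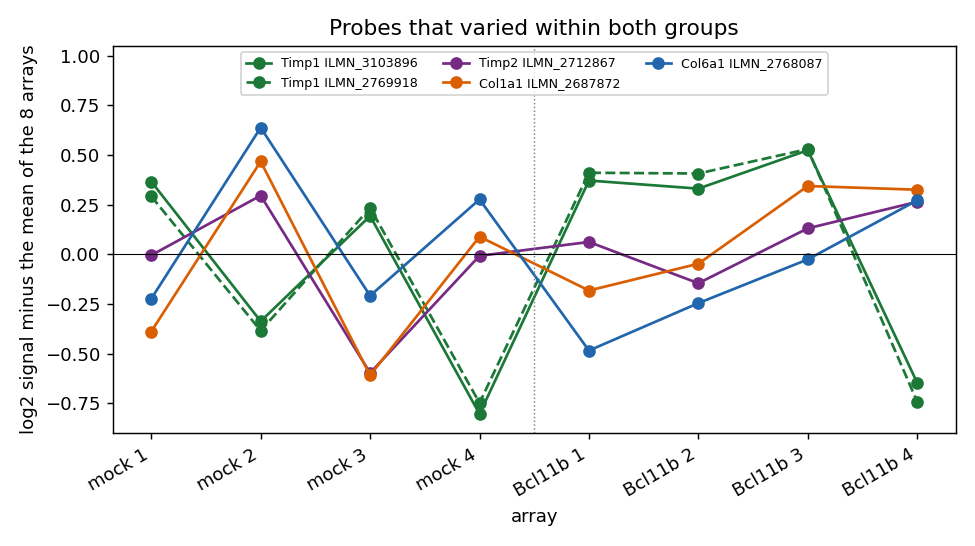
Log2 normalized signal minus the mean of the 8 arrays (vertical axis) for 2 Timp1 probes, Timp2, Col1a1 and 1 Col6a1 probe, by array. Both Timp1 lines fall on mock replicates 2 and 4 and on Bcl11b replicate 4, where the Col1a1 and Col6a1 lines lie above 0.

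Of the Adamts enzymes 1 of 7 detected probes passed the looser threshold and none the adjusted one. Adamts7, a protease of cartilage and vessel walls, had 6.07, 4.75, 5.59 and 6.21 in mock and 4.67, 2.75, 4.57 and 4.39 in Bcl11b cells (ILMN_2624328). The groups did not overlap (adjusted p = 0.38), but it was detected on 1 of 8 arrays, all Bcl11b values lay below the dimmest detected signal, and no fold is given. It no longer passed without mock replicate 1, 3 or 4, where the adjusted p lay between 0.54 and 0.70. The aggrecanases Adamts4 and Adamts5 had log2 fold changes of -0.18 (SE 0.14) and 0.10 (SE 0.22), and the brightest probe of Adamts2, which trims the amino end of procollagens, 0.22 (SE 0.20). Adamts1, detected on 7 arrays, had 0.42 (SE 0.50). Col4a3bp, the ceramide transfer protein, did not pass either threshold in its 3 probes, with log2 fold changes of 0.07 to 0.09.

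The rest of the matrix was read from a list of 62 glycoproteins, proteoglycans, collagen-modifying enzymes, plasminogen activators and collagen receptors, of which 60 were matched by symbol and 40 detected. Of the 40, 9 passed the looser threshold in at least 1 probe, 1 higher and 8 lower, or 3 higher and 5 lower with median scaling. By probe, 2 of 55 detected probes were higher (3.64%) and 8 lower (14.5%), against the 4.32% and 10.5% of all detected probes. The median log2 fold change of the 44 probes detected on all 8 arrays was -0.06.

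Dcn and Loxl1 passed the adjusted threshold. Dcn encodes decorin, a small proteoglycan that coats collagen fibrils and is also one of the fibroblast markers above, and it rose in both of its probes. ILMN_2747959 had 7.83, 7.15, 7.23 and 6.95 in mock and 8.79, 8.82, 8.82 and 8.60 in Bcl11b cells, a log2 fold change of 1.47 (SE 0.19; 2.77-fold higher; adjusted p = 0.049). ILMN_2596346 had 4.22, 4.53, 4.33 and 2.56 in mock, where it was not detected, and 6.89, 6.76, 6.67 and 6.29 in Bcl11b cells, where it was detected on all 4 arrays. Its mean Bcl11b level was at least 1.26-fold higher than the dimmest detected mock signals. The adjusted p of 0.088 tests its measured difference, which rests on undetected mock signals. Loxl1, a lysyl oxidase that cross-links elastin, had 11.04, 10.92, 11.60 and 11.22 in mock and 10.19, 10.25, 10.37 and 10.42 in Bcl11b cells. Each Bcl11b array was lower than each mock array, with a log2 fold change of -0.89 (SE 0.15; 1.85-fold lower; adjusted p = 0.096). With 1 array left out at a time the adjusted p of the brighter Dcn probe ranged from 0.0087 to 0.173 and was under 0.10 without mock replicate 1 or 2 or Bcl11b replicate 4. That of the dimmer Dcn probe ranged from 0.024 to 0.262 and was under 0.10 without mock replicate 2 or 4. That of Loxl1 ranged from 0.065 to 0.278 and was under 0.10 without mock replicate 2 or 3. All 3 calls were also lost under limma-trend, with adjusted p-values of 0.108 and 0.182 for the Dcn probes and 0.197 for Loxl1, and without normalization between arrays (0.161, 0.125 and 0.125).

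The other 7 genes passed the looser threshold alone, each lower in Bcl11b cells. They were Thbs2, a matricellular inhibitor of vessel growth (log2 fold change -0.40, SE 0.077), the basement membrane proteoglycan gene Agrn (-0.42, SE 0.12), the lysyl hydroxylase Plod1 (-0.46, SE 0.14), the prolyl hydroxylase subunit P4ha2 (-0.37, SE 0.15), the procollagen C-proteinase Bmp1 (-0.56, SE 0.21), the adhesion protein Tgfbi (-0.80, SE 0.24) and the membrane-bound Mmp inhibitor Reck. For Reck, detected on 2 mock arrays alone, the mean mock signal was 1.01-fold above the dimmest detected signals of the Bcl11b arrays. Their adjusted p-values ran from 0.134 for Thbs2 to 0.475 for P4ha2. Bmp1 was read by 4 probes that disagreed, since the log2 fold change was 0.06 (SE 0.27) and 0.17 (SE 0.25) in 2 others that all arrays detected. The Bmp1 probe no longer passed without mock replicate 4 or any 1 Bcl11b array (-0.52 to -0.60), nor P4ha2 without any 1 array other than mock replicate 2 (-0.27 to -0.41), without which its adjusted p was 0.076.

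**Figure D4:**
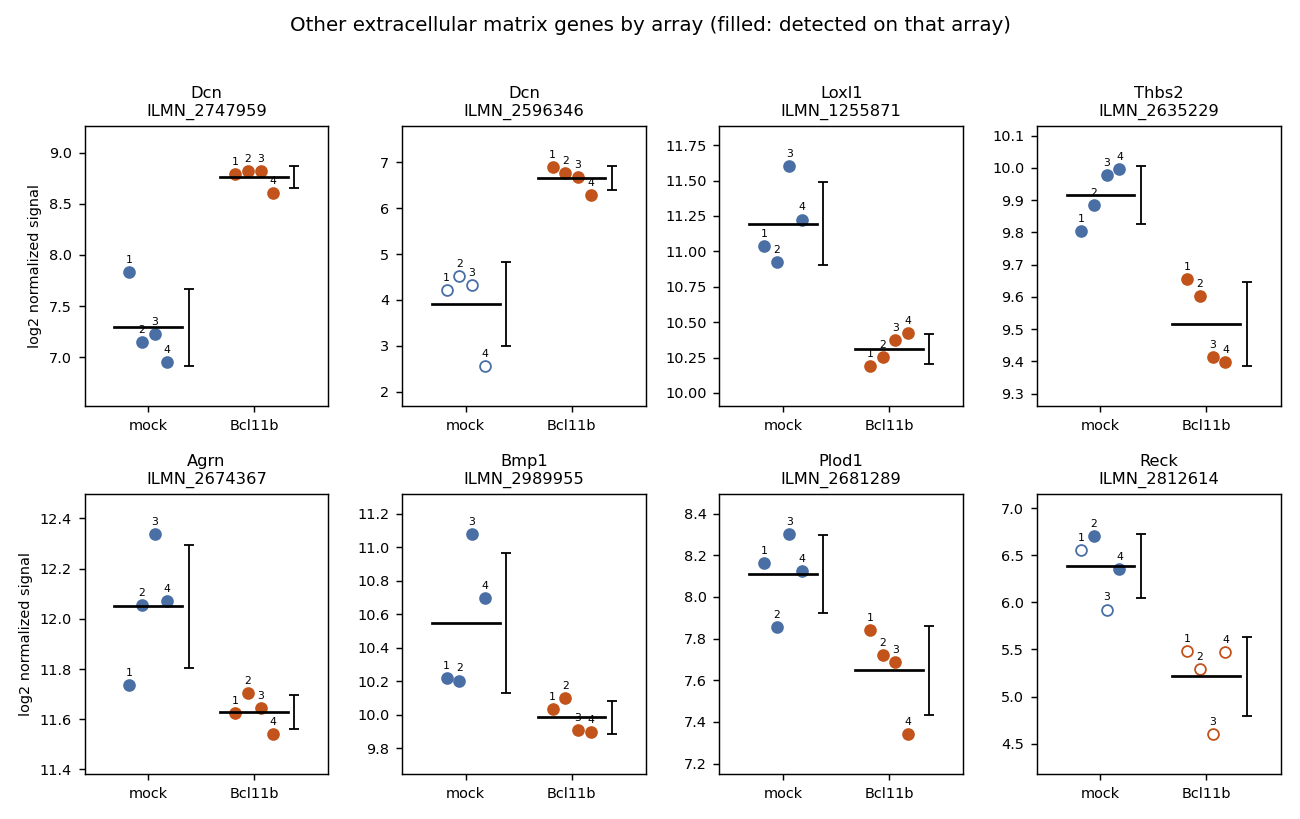
Log2 normalized signal (vertical axis) of 8 probes of other matrix genes in the 4 mock and 4 Bcl11b arrays, labelled with the replicate number, with group mean (line) and SD (bar), filled where detected and each panel on its own scale. The Bcl11b points lie above the mock points for both Dcn probes and below them for Loxl1, Thbs2, Agrn, Bmp1 (ILMN_2989955), Plod1 and Reck.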

How the data were processed

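RNA of 4 mock and 4 Bcl11b-transfected sets of STHdh cells was hybridized to 1 Illumina array each. The authors deposited 1 intensity per probe, the background-subtracted average bead signal from GenomeStudio without normalization between arrays, with a deposited detection p-value against negative control beads. Here the intensities were quantile-normalized, set to at least 1 (30.6% to 31.6% of an array were at or below 0), transformed to log2 and compared with limma 3.58.1 (lmFit and eBayes, no covariate) in R 4.3.3 over 25697 probes, with Benjamini-Hochberg adjustment. Thresholds followed the study's methods. Groups came from the sample titles, and nothing in the labels states separate cultures, so p-values measure the spread between these 4 sets, and their number limits the precision. No 2 arrays held an identical probe signal. A probe detected on no array of 1 group was given as a bound, relative to the dimmest detected signal on its arrays, and none was given where neither group was detected. The bound compares group means without their sampling error, and the p-value beside it tests the measured difference.

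The text names each detected member probe past the looser threshold and the 3 other brightest probes of each family detected on all arrays. It also names every Timp gene and the other detected probes of the genes named, and of the other matrix genes those past the looser threshold. Col3a1, Col5a2, Lamb1-1, Mmp1a, Adamts1 and Col4a3bp values were added where their values or names called for it after they were seen. The members, lists and tests were chosen with earlier results of these data known. The fit was tested on simulated data: of 200 probes given a log2 change of 1 among 25697, it called 45.5%, with 10 unchanged probes. The simulated noise was independent between probes, and the changed probes were all detected on every array. These rates therefore do not cover deviations shared across probes or signals near background. Alternatives were no normalization, median scaling, neqc, an offset of 16, a shift of the lowest signal, detection filters at 0.01 and 0.05 on 4 arrays, the replicate block, limma-trend, arrayWeights and leaving out each array. Promoters were read from RefSeq on GRCm38.p6. Fn1 and Ppib of the list of other matrix genes were not matched by symbol, and 1 gene that the rule names is not reported here.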

Additional observations from a re-analysis of the deposited data

Results flagged for a closer look

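In 8 of 100 groups of 4 arrays, 1 array stood far from the other 3, where chance gives about 1 in 20. Bcl11b replicate 4 was low for both Timp1 probes, at 11.82 against 12.97 to 13.09 for ILMN_2769918 and at 12.13 against 13.11 to 13.30 for ILMN_3103896. The same array was high for Lamc1 (11.14 against 10.72 to 10.76) and low for the brighter Dcn probe ILMN_2747959 (8.60 against 8.79 to 8.82). Bcl11b replicate 3 was low for Mmp3 ILMN_2899041 (7.13 against 7.66 to 7.73), and Bcl11b replicate 2 was low for Adamts7 (2.75 against 4.39 to 4.67). Mock replicate 2 was low for the Adamts2 probe ILMN_1226259 (5.81 against 6.68 to 6.80), and mock replicate 4 for the Dcn probe ILMN_2596346 (2.56 against 4.22 to 4.53).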

How the results depend on the processing

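The 4 member probes past the adjusted threshold became 0 without normalization between arrays, 2 with median scaling (1 higher and 1 lower), 1 with the replicate block and 1 under limma-trend, and 1 to 5 with each array left out. Past the looser threshold, the 13 member probes (detected or not) became 40 without normalization, 23 with a shift of the lowest signal to 1 and 23 with arrayWeights, and 11 to 18 with each array left out, and the 11 detected ones became 29 (0 higher) without normalization, 8 with the replicate block (8 of them among the 11), and 7 to 14 with each array left out. Median scaling moved the split of the detected ones from 2 higher and 9 lower to 4 and 7. The 9 other matrix genes became 26 without normalization, 14 with arrayWeights and 7 to 15 with each array left out, the highest without mock replicate 2. Leaving out mock replicate 2 raised adjusted calls over all probes from 252 to 637, so a pass there is not particular to the genes named. Without normalization, the median of all probes moved by -0.49, and the median log2 fold change of probes detected on all 8 arrays was -0.68. In that setting the sign turned for Col18a1 ILMN_2937542 (-0.73), Col4a2 (-0.58), Lamb2 (-0.43), Lamc1 (-0.65), Mmp10 (-0.44), Col4a3bp (-0.69, -0.62 and -0.61) and 2 Bmp1 probes (-0.62 and -0.51). Of the values recomputed for 67 single probes, 66 lost and 44 gained an unadjusted p under 0.05, and beside the 10 turned signs above a further 88 values changed sign, all without a p under 0.05 before or after. The r of same-numbered deviations was 0.52, -0.54, 0.10 and 0.57. It was the highest of its mock array for replicates 1 and 4 and not for 2 and 3. These 4 values cannot settle whether the numbers pair the arrays, and the labels do not state it. Signal near background limits 20 member probes detected on some arrays.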
